A study of Mus musculus with 29 samples.

Results

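The CpG methylation of mouse embryonic stem cells (ESCs) that had been returned from 2i/L to serum for 3 passages was compared with that of the same cell lines still in 2i/L. The 6 libraries used, of 29 in the series, were chosen by their titles: J-34, J-35 and J-37 kept in 2i/L to passage 20 (2i/L p20, 3 libraries) and the same lines at passage 23 after the return (p23, 3 libraries). All 3 lines are labelled male, carry no labelled genetic change, and entered 2i/L at passage 4. The 2i/L p20 cells had 16 passages in 2i/L, and the p23 cells had 16 passages in 2i/L followed by 3 in S/L, which is serum with LIF. As levels of cells never placed in 2i/L, the S/L libraries of the same lines at passage 10 (S/L p10, here serum p10) and passage 20 (S/L p20, here serum p20) were used, 3 each, and the 2 libraries collected 10 passages after the return (p30) are quoted for a few regions. Of these 2 p30 libraries, 1 is titled J-35 while its cell type label and protocol name J-34. Each line gave 1 library per medium and time, so n = 3 is 3 lines, and p23 cells are 3 passages older than the 2i/L p20 cells.

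Methylation of the cytosine in CpG dinucleotides is written by Dnmt3a and Dnmt3b with their cofactor Dnmt3l and is copied at each cell division by Dnmt1 with Uhrf1. ESCs kept in 2i, a pair of inhibitors of Mek1/2 and Gsk3, are known for low methylation, and serum-grown ESCs for high methylation. CpG islands, which hold many CpGs and many gene starts, are mostly free of the mark in either state, whereas imprinted regions carry it on 1 parental allele and are known for needing protection of the mark through early development.

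Reduced representation bisulfite sequencing (RRBS) reads CpGs mainly in CpG-rich restriction fragments. The 6 libraries held 16393572 to 20592309 reads over CpGs. Autosomal CpGs with 5 or more reads in all 6 libraries numbered 878972, and they fell into 82011 non-overlapping bins of 1 kb with 3 or more such CpGs, called tiles here. A tile had a median of 4 CpGs and 69 reads per library, and at least 15 reads. The level of a tile is the percent of its reads that were methylated, and the gain is the mean of the 3 p23 libraries less the mean of the 3 libraries of 2i/L p20, in percentage points.

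Methylation was higher at p23 than in 2i/L p20 in every line, and the p23 libraries lay close together. The mean CpG level in 2i/L p20 was 14.1% in J-34, 10.2% in J-35 and 7.20% in J-37. At p23 it was 29.4% in J-34, 29.2% in J-35 and 28.7% in J-37. The lowest p23 library thus lay above the highest 2i/L library. The means were 10.5% ± 3.46 in 2i/L p20, then 29.1% ± 0.362 at p23 (SD, n = 3 each), a difference of 18.6 points and a ratio of 2.77. The gain was 15.3 points in J-34, 18.9 in J-35 and 21.5 in J-37, so the line that started lowest had the largest value. The exact two-sided permutation p was 0.1, the smallest that 3 against 3 can give. With the signs permuted within the 3 lines, as a replicate block, the exact p was 0.25, again the smallest possible.

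**Figure D1:**
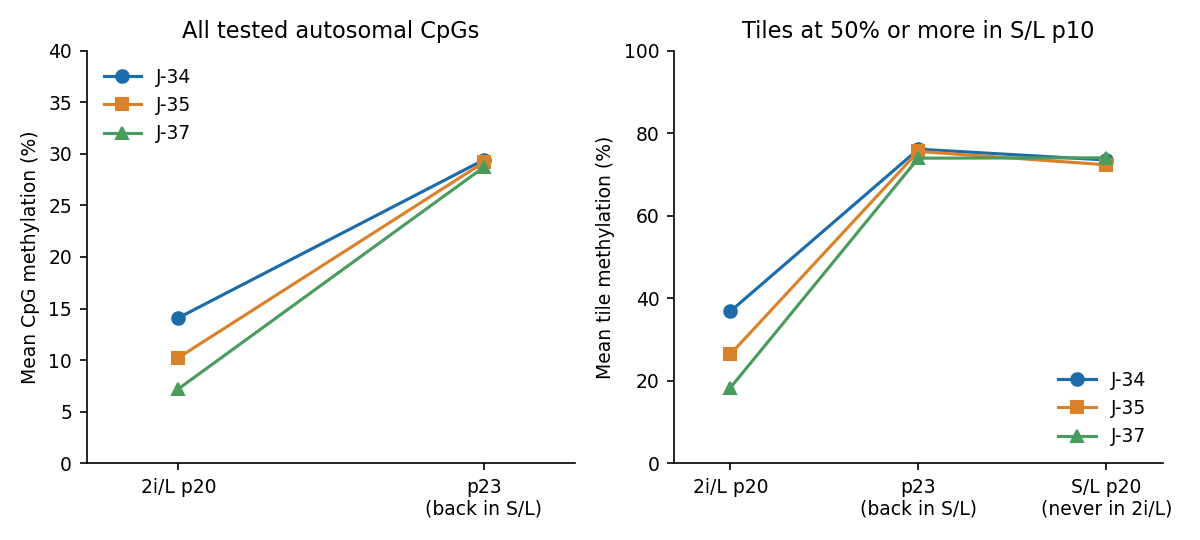
Left, mean CpG methylation (percent, linear axis) of each line over the tested autosomal CpGs in 2i/L p20 and at p23. Right, mean methylation of the 32737 tiles at 50% or more in serum p10, with the serum p20 library of the same line. Each marker is 1 library and lines join libraries of 1 cell line. The 3 lines spread over 6.89 points in 2i/L p20 and over 0.712 points at p23 on the left.

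At the level of tiles the gain was widespread. limma, fitted to log2 of the ratio of methylated to unmethylated reads over all tiles, called 50640 tiles (61.7%) higher at p23 where the Benjamini-Hochberg adjusted p was under 0.05 and the gain reached 20 points. The share called was 42.1% with 10 or more reads per CpG and 37.8% with 5 or more CpGs per bin. The median gain of the called tiles was 47.4 points. Of these tiles, 50183 had 3 p23 libraries that all lay above all 3 of 2i/L p20, and 3940 tiles gained 60 points or more. No tile (0%) was called lower, against 324 tiles that were lower at an unadjusted limma p under 0.05, and the quasi-binomial model, run as a second tool, also called 0 lower. Without the 20-point minimum, 232 tiles were lower at an adjusted p under 0.05, and 2 of them by 10 points or more.

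Tiles moved from the low and middle range into the high range. Tiles at 50% or more made up 12.6% of all tiles in J-34, 3.13% in J-35 and 0.849% in J-37 in 2i/L p20. At p23 they made up 53.4% in J-34, 53.5% in J-35 and 53.3% in J-37. Tiles under 10% made up 41.6%, 45.7% and 55.8% of tiles in 2i/L p20 in the same order of lines. At p23 the shares under 10% were 30.7%, 30.8% and 30.5%.

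The 5 called tiles with the largest gains, among those with at least 30 reads in each library and no overlap between the groups, had 3.9% to 16.4% in 2i/L p20 and 81.8% to 97.5% at p23. No gene annotation of the files' build (mm9) was used, so tiles are given by position alone, from their first to their last CpG. The largest gain was at chr16:92119716-92119958 (3 CpGs), with 3.9%, 5.9% and 6.8% in 2i/L p20, then 90.2%, 83.0% and 86.7% at p23 (J-34, J-35 and J-37 in each case; limma adjusted p = 8.66e-07). The serum p20 libraries had a mean of 64.5% there, below each p23 library. Serum p10 had a mean of 84.9% at this tile, above the p23 library of J-35 and below those of J-34 and J-37. At chr3:89676324-89676379 (5 CpGs) the levels were 7.6%, 7.5% and 9.3% in 2i/L p20, then 87.5%, 86.3% and 91.1% at p23. At chr11:68162155-68162623 (6 CpGs) they were 11%, 7.2% and 7.0%, then 94.0%, 85.3% and 82.3%. The remaining 2 of these 5 tiles, chr16:35486284-35486455 and chr1:89330279-89330304, gained 80.2 and 79.8 points.

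CpG density, taken as the number of tested CpGs in a tile and not of all CpGs in its sequence, separated the tiles sharply. Tiles of 3 to 9 CpGs (63724 tiles) had mean levels of 27.6%, 19.9% and 13.9% in 2i/L p20, then 58.2%, 57.8% and 56.9% at p23 in J-34, J-35 and J-37. Their gain was 37.1 points, and 49344 of them (77.4%) were called higher. Tiles of 10 to 29 CpGs (12740 tiles) had 3.83%, 3.07% and 2.35%, then 8.64%, 8.65% and 8.71%. Their gain was 5.59 points, and 1293 (10.1%) were called higher. The size of that gain depended on the CpGs used: it was 1.88 points with 10 or more reads per CpG and 13.8 points with density counted over all CpGs listed in any of the 6 files. Tiles of 30 or more CpGs (5547 tiles) had 0.529% ± 0.00881 in 2i/L p20, then 0.919% ± 0.0260 at p23 (SD, n = 3 each), and 3 of them were called. In each class the p23 libraries lay above those of 2i/L p20, with an exact two-sided permutation p of 0.1 and a Benjamini-Hochberg adjusted p of 0.1 over the 3 classes. The gain of tiles of 3 to 9 CpGs exceeded that of tiles of 10 to 29 CpGs by 31.5 points, with 25.8 to 36.6 points within the lines and an exact p of 0.1 (0.25 with the replicate block), the smallest each design allows.

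Most of that separation was present in the serum level of the tiles. Among 65917 tiles with at least 20 reads in each serum p10 and serum p20 library, tiles of 3 to 9 CpGs averaged 59.5% in serum p10 and tiles of 10 to 29 CpGs averaged 8.69%. When tiles were matched by their serum p10 level, both density classes reached similar levels at p23. Among tiles at 70 to 90% in serum p10, sparse tiles of 3 to 9 CpGs had 26.8% ± 9.59 in 2i/L p20, then 76.9% ± 1.23 at p23, and denser tiles of 10 to 29 CpGs had 26.2% ± 8.86 and 75.6% ± 0.979 (SD, n = 3 each). At 50 to 70% in serum p10 the p23 levels were 57.6% ± 0.542 and 56.3% ± 0.411. At 20 to 50% they were 35.8% ± 0.654 and 32.4% ± 0.661, and at 5 to 20% they were 14.3% ± 0.629 and 11.6% ± 0.405 (SD, n = 3 each). In these 4 classes the denser tiles were lower at p23 in each of the 3 lines. The match was loose, since their serum p10 means were lower too. From the highest class down these were 81.4% against 82.8%, 60.6% against 61.0%, 33.1% against 35.2% and 10.2% against 11.5%. The serum p20 means in the same order were 73.1% against 75.8%, 48.1% in both, 24.5% against 24.9% and 7.39% against 8.17%. Whether the loose match accounts for the lower p23 levels of denser tiles was not tested. At 90% or more in serum p10 the p23 levels were 84.8% ± 1.51 in sparse and 84.8% ± 1.54 in denser tiles (102 tiles). There the denser tiles were the higher in J-35, 85.20% against 85.14%. The difference between density classes within a serum class was not tested.

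**Figure D2:**
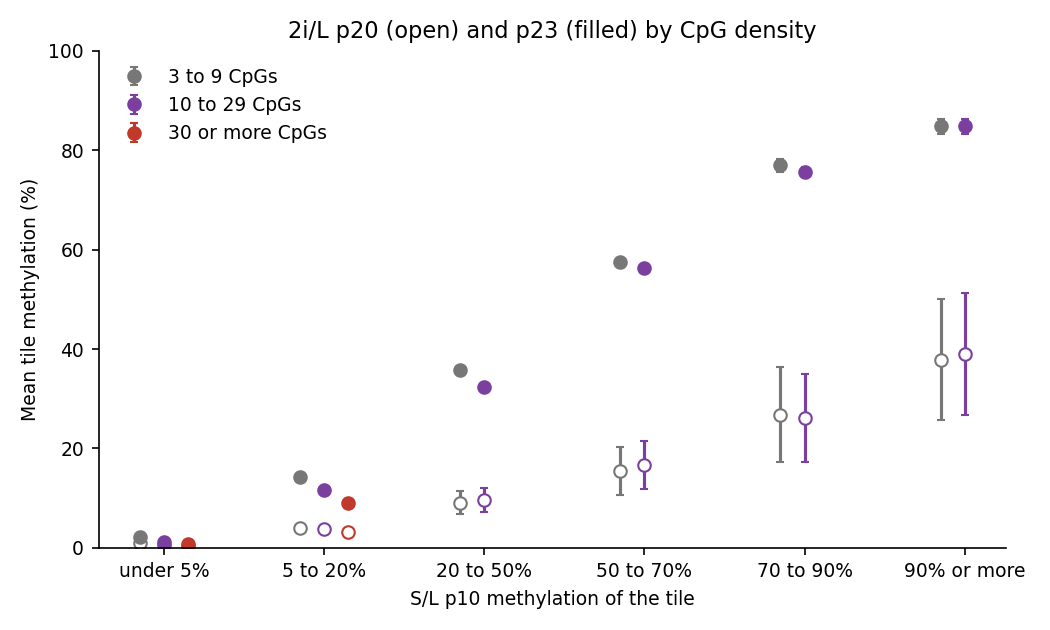
Mean tile methylation (percent, linear axis) in 2i/L p20 (open) and at p23 (filled) by the level of the tile in serum p10, for 3 classes of the number of tested CpGs per 1 kb bin. Points are means and bars SD over 3 lines; classes with under 20 tiles are left out. In the class at 70 to 90% the p23 means of tiles of 3 to 9 and of 10 to 29 CpGs are 76.9% and 75.6%.

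Of the 1293 called tiles of 10 to 29 CpGs, 869 were at 50% or more in serum p10. At chr12:71352119-71352746 (10 CpGs, at least 88 reads in each library) the levels were 28.7%, 13.6% and 5.8% in 2i/L p20, then 87.4%, 83.6% and 85.0% at p23, beside 80.9% in serum p20. At chr11:85613462-85613611 (11 CpGs) they were 15.5%, 8.6% and 11.6%, then 81.1%, 83.8% and 77.9%, beside 69.4% in serum p20. Each p23 library lay above the serum p20 mean at both tiles, whereas the serum p10 means, 88.7% and 79.7%, lay above all 3 and 1 of the p23 libraries. The 3 called tiles of 30 or more CpGs gained 20.2 to 32.2 points. The largest was chr13:120277016-120277915 (50 CpGs, at least 1431 reads), with 25.0%, 26.0% and 14.2% in 2i/L p20, then 57.3%, 57.0% and 47.5% at p23, beside 60.5% in serum p20. At chr7:52632089-52632634 (32 CpGs) p23 reached 33.3%, 27.2% and 33.7% from 7.7%, 6.5% and 5.3%, while serum p20 had a mean of 14% and serum p10 of 21.9%. The third, chr1:93241054-93242001 (44 CpGs), fell under 20 points when the 2i/L p20 library of J-37 (19.6 points) or the p23 library of J-34 (19.5 points) was left out.

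The methylation left in 2i/L was related to the level reached at p23. To keep the starting value of a line out of its own gain, tiles were classed by their mean 2i/L p20 level in the other 2 lines. Tiles under 5% in the other lines had 1.52% in the line itself and reached 6.16% ± 1.03 at p23. Tiles at 5 to 10% reached 38.7% ± 5.41, those at 10 to 20% reached 60.4% ± 6.31, and those at 20 to 40% reached 77.6% ± 4.05. Tiles at 40 to 60% reached 86.0% ± 2.59, and those at 60% or more reached 89.5% ± 2.10 (SD over 3 lines throughout). The gain was largest in the middle: 4.65 points under 5%, 29.5 at 5 to 10%, 42.8 at 10 to 20%, 48.3 at 20 to 40%, 43.2 at 40 to 60% and 29.1 at 60% or more. Since J-34 was highest in 2i/L, a class defined on the other lines holds different tiles for each line, with 10344 to 17626 tiles at 10 to 20% and 260 to 1186 at 60% or more. The same order held among tiles of 10 to 29 CpGs, which reached 2.31% ± 0.144, 23.8% ± 2.16, 48.0% ± 6.19, 73.4% ± 4.19 and 86.0% ± 3.74 over the first 5 classes.

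Residual methylation and the serum level moved together, so both were used at once. Among tiles at 50 to 80% in serum p10, those under 5% in 2i/L p20 in the other lines had 7.22% in the line itself and 50.5% ± 1.96 at p23, beside 44.1% in serum p20. Tiles of the same serum class at 5 to 20% residual level reached 60.7% ± 2.31, beside 53.6% in serum p20. At 20 to 40% they reached 69.6% ± 2.21, beside 62.9%, and at 40% or more 76.0% ± 1.65, beside 71.5%. The serum p20 level, which took no part in forming the classes, thus ran in the same order as the p23 level. Each of these 4 residual classes lay above its serum p20 mean. Among tiles at 80% or more in serum p10 the p23 means lay below it. Tiles under 5% residual level (2 lines, 23 and 90 tiles) reached 67.4%, beside 72.0%, and those at 5 to 20% reached 73.6%, beside 75.5%. In the larger classes the means were close, 81.0% beside 81.4% at 20 to 40% and 86.8% beside 87.5% at 40% or more. The lines differed there: at 20 to 40%, J-34 had 84.1% beside 83.2% and J-35 81.2% beside 80.5%. J-37 had 77.8% beside 80.7%. At 40% or more J-35 was above its serum p20 level and J-37 below. Tiles under 5% in both serum p10 and 2i/L p20 of the other lines had 1.31% ± 0.0570 at p23 (21393 to 21457 tiles per line).

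**Figure D3:**
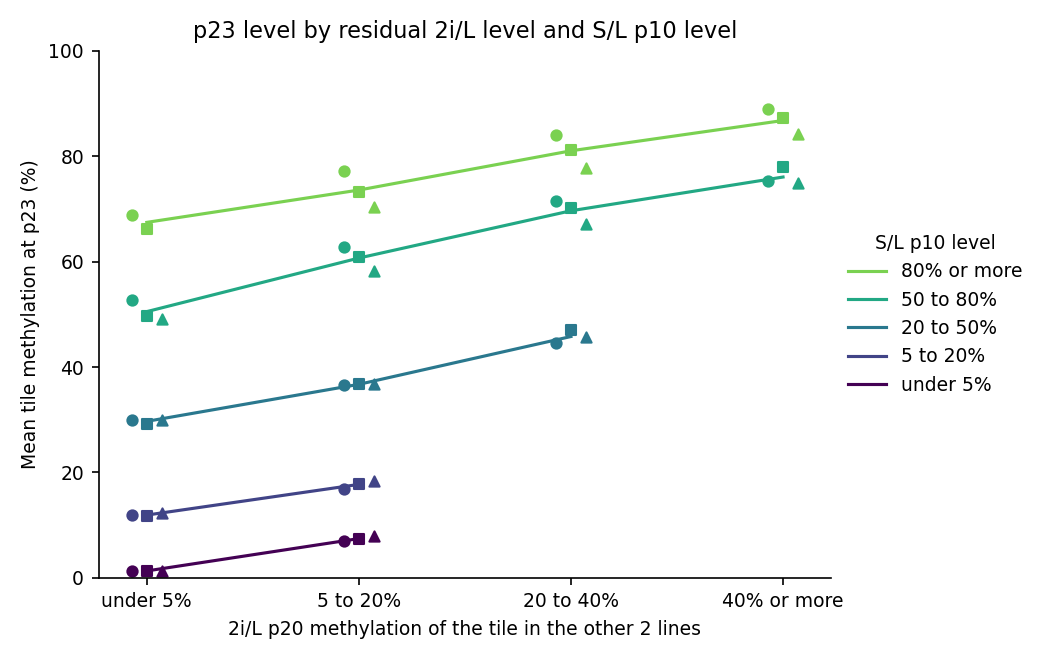
Mean tile methylation at p23 (percent, linear axis) by the 2i/L p20 level of the tile in the other 2 lines, with 1 curve per serum p10 level. Markers are lines (circle J-34, square J-35, triangle J-37) and curves join their means; groups of under 20 tiles are left out. Within each residual class the curves keep the order of the serum level, from 1.31% to 67.4% in the class under 5%.

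Across the 65917 tiles, the mean p23 level had a Pearson r of 0.984 with serum p10, 0.975 with serum p20 and 0.893 with 2i/L p20. Among the 32737 tiles at 50% or more in serum p10 these were 0.785, 0.794 and 0.699. These values are descriptions over tiles of the same libraries, which share CpG number and depth, and tiles are not replicates.

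In tiles methylated in serum, p23 levels were close to or above those of serum p20. The 32737 tiles at 50% or more in serum p10 had 36.8%, 26.4% and 18.3% in 2i/L p20, 76.1%, 75.6% and 74.0% at p23, and 73.5%, 72.4% and 74.0% in serum p20 (J-34, J-35 and J-37). Recovery, the gain as a percent of the distance from 2i/L p20 to serum p20, was 107% in J-34, 107% in J-35 and 99.9% in J-37. When tiles were chosen by serum p20 and set against serum p10 instead, the mean recovery was 89.2% in place of 105%, with both the choice of tiles and the serum passage compared against changed at once; their separate parts were not tested. Recovery also varied with the serum class. Tiles at 90% or more in serum p10 had 84.8% ± 1.51 at p23 and 86.9% ± 0.551 in serum p20, whereas tiles at 20 to 50% had 35.4% ± 0.650 at p23, 24.9% ± 0.566 in serum p20 and 35% in serum p10, the library set that chose them. Beyond the 3 passages, the p30 libraries had 89.0% in the 6203 tiles of the highest class with enough reads.

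Single tiles that lagged were few. Among 31995 tiles at 50% or more in serum p10 and at least 20 points higher in serum p20 than in 2i/L p20, recovery had a median of 103%, and 29744 (93.0%) were at 80% or more. Recovery was under 50% in 173 tiles, which averaged 25.6% in 2i/L p20, 47.1% at p23 and 78.3% in serum p20. Of the 142 with reads at p30, the mean was 46.6% at p23 and 73.9% at p30, and 6 were still under 50% recovery then. The choice of these tiles for a low p23 level itself favours a higher value at p30. A set of 191 tiles was chosen for 70% or more in every S/L library and 20% or less in every 2i/L p20 library. It had a median p23 level of 74.2%, and each was called higher, against 61.7% of all tiles, a count that the choice on 2i/L p20 itself favours. The smallest gain among these 191 was 29.6 points at chr5:50754343-50754463 (3 CpGs), with 15.6%, 15.4% and 3.9% in 2i/L p20, 47.2%, 41.5% and 35.1% at p23, a mean of 84.1% in serum p20 and 74.0% at p30. At chr16:32144006-32144169 (6 CpGs, at least 84 reads) the levels were 5.4%, 5.4% and 1.2%, then 32.6%, 43.6% and 31.2%, with 76.2% in serum p20 and 79.3% at p30. These 2 tiles lay between the 2i/L and serum levels at p23 in every line.

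Recovery was under 25% in 8 tiles, and 7 of those had 3 to 5 CpGs. The eighth, chr11:11925612-11925897, had 16 CpGs and at least 221 reads in each library. Its levels were 21.9%, 3.5% and 0.5% in 2i/L p20, then 16.1%, 6.8% and 2.2% at p23 (limma adjusted p = 0.544), with 52.4% in serum p20 and 8.36% at p30. The groups overlapped, and the other 7 tiles had p30 means of 44.8% to 89.3%. The tile was singled out after its values were seen. Leaving out the 2i/L p20 library of J-34 brought 3 of the other 7 tiles past the call rule, with gains of 22.9 points at chr7:54694271-54694292, 25.7 at chr8:125389025-125389061 and 21.0 at chr17:27426834-27426987.

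The cell lines differed in 2i/L and hardly at p23. Between J-34 and J-37 the mean CpG level differed by 6.89 points in 2i/L p20 and by 0.712 points at p23. Among 67934 tiles with at least 30 reads in each library, J-34 was the higher of the 2 in 73.3% of tiles in 2i/L p20 and in 53.7% at p23. The 3 lines spanned 30 points or more in 5860 of these tiles (8.63%) in 2i/L p20 and in 314 (0.462%) at p23. In the 5860 tiles the mean levels were 53.7%, 32.4% and 18.8% in 2i/L p20, 83.0%, 82.1% and 79.9% at p23, and 83.3%, 82.3% and 83.5% in serum p20 (J-34, J-35 and J-37). The tiles were chosen for their spread in 2i/L, so their spread there is a description, and with 1 library per line and medium a line difference within 1 medium cannot be tested.

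**Figure D4:**
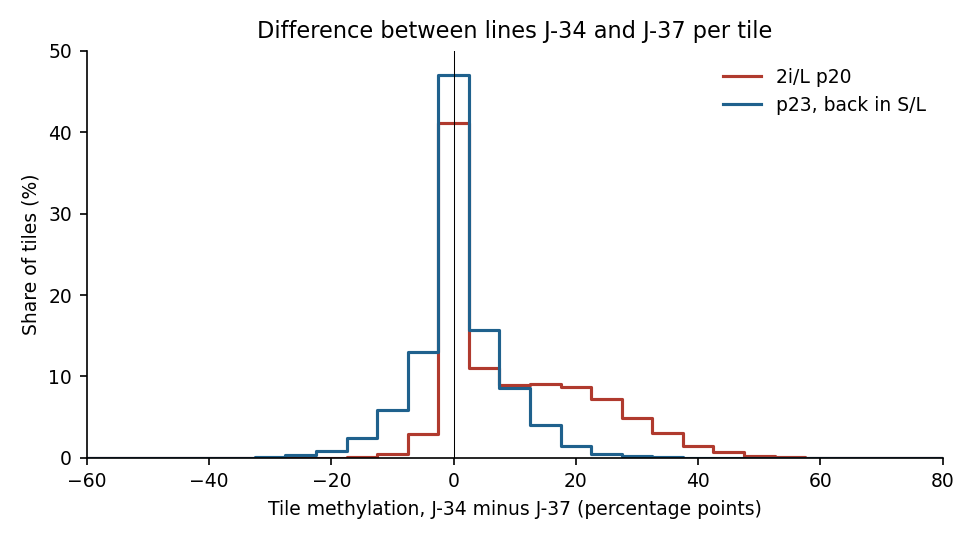
Share of 67934 tiles (percent, linear axis) by the difference in methylation between lines J-34 and J-37 (percentage points, steps of 5), in 2i/L p20 and at p23. In 2i/L p20, 21.9% of tiles were at least 20 points higher in J-34, against 1.3% at p23.

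At chr8:97944659-97944852 (4 CpGs, at least 30 reads) the lines had 70%, 25.8% and 2.2% in 2i/L p20, then 79.1%, 77.8% and 78.8% at p23. At chr13:13233564-13233581 (4 CpGs) they had 75%, 80% and 11.8%, then 88.2%, 80% and 86.7%. At chr13:87326214-87326234 (4 CpGs, at least 32 reads) they had 75%, 50% and 5.8%, then 75%, 60% and 47.7%, so part of the order remained there. This last tile was not called (limma adjusted p = 0.16), but gained 33.0 points and passed without the 2i/L p20 library of J-34. The gain at chr13:13233564-13233581, 29.4 points, was 7.47 points and not called without the 2i/L p20 library of J-37. These 3 tiles were named for the largest line differences in 2i/L p20, and their 2i/L values are a description.

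Tiles near CpG-dense unmethylated DNA reached lower levels. Of tiles of 3 to 9 CpGs, those in the bin next to a tile of 10 or more CpGs under 5% in every serum p10 library (14765 such dense tiles) had 3.83% ± 0.969 in 2i/L p20, then 11.1% ± 0.244 at p23 (4953 tiles). At 2 to 5 bins they had 16.9% ± 5.50 and 48.8% ± 0.0383 (5212 tiles), and farther away 22.4% ± 7.54 and 62.8% ± 0.836 (53559 tiles; SD, n = 3 each). Restricted to tiles at 50% or more in serum p10, the p23 levels were 62.0% ± 0.311, 70.7% ± 0.745 and 75.9% ± 1.19, and recovery was 106%, 106% and 104%. Over autosomes, the gain of tiles at 50% or more in serum p10 ran from 46.5 points on chromosome 3 to 48.7 on chromosome 4. The 45 such tiles on chromosome X, the single X of male cells, had 27.6% in 2i/L p20, 62.7% at p23 and 70.3% in serum p20. Tiles read more than 5 times as deeply as the median tile were few: 18 at 50% or more in serum p10, with 39.5% ± 10.7, 68.1% ± 2.16 and 76.7% ± 1.68 in 2i/L p20, p23 and serum p20 (SD, n = 3 each).

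To look at genes, RefSeq promoter sequences (build GRCm38.p6, 250 bases before to 50 after each start) were located in the mm9 files by the spacing of their CpGs, with no conversion of coordinates. Of 32619 sequences on the chromosomes searched, 10683 (9412 genes) were placed, and 9607 windows (8501 genes) had 3 or more CpGs with 5 or more reads in all 6 libraries. Of these windows, 6 carry the results below, and their 250 bases before the start are printed 5′ to 3′ on the gene's strand, with the CpGs tested here in capitals. The first 4 rose at p23 and the last 2 did not pass the test. They are Rpl39l (chr16:10169978-10170227, plus strand), Asz1 (chr6:18109062-18109311, minus), Sycp1 (chr3:102936101-102936350, minus), Atf7ip (chr6:136518601-136518850, plus), Plagl1 (chr10:13090582-13090831, plus) and Zrsr1 (chr11:22971755-22972004, plus), all in GRCm38.p6.
Rpl39l: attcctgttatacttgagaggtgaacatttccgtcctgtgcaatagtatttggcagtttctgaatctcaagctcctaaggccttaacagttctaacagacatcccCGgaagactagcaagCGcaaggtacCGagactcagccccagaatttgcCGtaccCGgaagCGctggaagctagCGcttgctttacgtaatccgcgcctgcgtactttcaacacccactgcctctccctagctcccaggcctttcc
Asz1: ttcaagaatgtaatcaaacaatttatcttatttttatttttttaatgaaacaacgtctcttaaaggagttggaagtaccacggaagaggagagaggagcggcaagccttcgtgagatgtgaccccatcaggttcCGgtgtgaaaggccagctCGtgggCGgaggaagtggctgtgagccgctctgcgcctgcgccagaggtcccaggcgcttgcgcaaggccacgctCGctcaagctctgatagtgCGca
Sycp1: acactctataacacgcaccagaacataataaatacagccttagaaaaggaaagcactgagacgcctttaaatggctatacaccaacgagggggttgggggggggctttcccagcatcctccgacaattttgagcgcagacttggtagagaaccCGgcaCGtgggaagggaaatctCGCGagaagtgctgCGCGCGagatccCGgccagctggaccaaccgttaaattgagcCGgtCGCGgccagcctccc
Atf7ip: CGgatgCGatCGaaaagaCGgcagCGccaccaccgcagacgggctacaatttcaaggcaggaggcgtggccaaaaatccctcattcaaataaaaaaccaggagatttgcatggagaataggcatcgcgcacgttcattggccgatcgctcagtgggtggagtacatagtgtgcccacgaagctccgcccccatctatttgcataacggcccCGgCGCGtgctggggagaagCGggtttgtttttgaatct
Plagl1: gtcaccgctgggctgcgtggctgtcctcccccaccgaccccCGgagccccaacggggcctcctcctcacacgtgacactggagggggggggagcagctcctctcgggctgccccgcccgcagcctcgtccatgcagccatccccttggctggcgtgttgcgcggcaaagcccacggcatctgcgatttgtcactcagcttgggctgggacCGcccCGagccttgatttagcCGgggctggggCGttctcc
Zrsr1: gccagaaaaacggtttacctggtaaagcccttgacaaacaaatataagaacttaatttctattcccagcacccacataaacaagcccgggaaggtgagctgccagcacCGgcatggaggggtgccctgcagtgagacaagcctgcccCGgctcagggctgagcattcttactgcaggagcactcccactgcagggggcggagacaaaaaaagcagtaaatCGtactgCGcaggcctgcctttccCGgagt

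Promoter windows were mostly unmethylated throughout. The 8460 windows under 5% in serum p10 had 0.459% ± 0.0247 in 2i/L p20, then 0.690% ± 0.0377 at p23 (SD, n = 3 each), and 0 of them were called. Over all 9607 windows, limma called 260 (2.71%) higher and 0 (0%) lower; 221 windows were lower at an unadjusted limma p under 0.05, and the quasi-binomial model also called 0 lower. Of the windows placed by CpG spacing alone, which need 8 or more CpGs, 17 of 5164 were called, so most calls rest on windows placed beside others. Of the windows named below, those of Asz1, Tex101, Sycp1, Fkbp6, Sohlh2, Plagl1, Zrsr1, Mcts2, Sh3tc1, Gm40327, Pou5f1, Sox2, Klf4, Tet1, Tet2, Tdg, Setdb1 and 1 of Uhrf1 were placed in that second way. So were those of Tdrkh, Meioc, Dmc1 and Smc1b. The 157 windows at 50% or more in serum p10 had 21.4% ± 7.62 in 2i/L p20, then 69.7% ± 1.43 at p23, beside 66.3% in serum p20, and 153 of them were called higher. The 81 windows at 20 to 50% had 7.98% ± 2.21 and 30.5% ± 0.723, beside 24.3%, and 44 were called. Genes here and below were picked for their known roles after a first look at promoter values, so their counts are descriptions and support nothing beyond the values.

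Some promoters of germline genes, which ESCs are known to methylate and silence, were among those that rose. Of 61 such genes listed, 16 (17 windows) were tested, and 7 windows were called higher at p23, against 2.71% of all windows. Most windows of any kind were unmethylated in serum. Of 6 germline windows at 20% or more in serum p10 with enough serum reads, 5 were called, against 82.8% of all 238 such windows. A difference from other windows of like serum level was not tested. The median gain of the 17 windows was 9.83 points, against 0.122 over all 9607. Rpl39l, a testis-expressed ribosomal protein gene, had 16.3%, 18.1% and 9.3% in 2i/L p20, then 68.9%, 75.9% and 62.1% at p23 over 8 CpGs (limma adjusted p = 5.22e-05), with 45.6% in serum p20 and 70.4% in serum p10. Each p23 library lay above every serum p20 library. Tex101, which encodes a germ cell surface protein, had 22.3%, 30.2% and 13.6%, then 80.5%, 81.0% and 59.3%, beside 70.2% in serum p20 (6 CpGs). Asz1, needed in the piRNA pathway that silences transposons in male germ cells, had 10.2%, 13% and 11.1%, then 53.7%, 46.3% and 56.1%, beside 41.5% (7 CpGs). The groups did not overlap at any of these 3 promoters. Serum p10 had means of 79.0% at Tex101 and 58.9% at Asz1, above their p23 means of 73.6% and 52.0%.

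Other germline genes rose by less or not at all. Sycp1, a structural protein of the synaptonemal complex, had 20.2%, 14.2% and 9.4% in 2i/L p20, then 34%, 43.9% and 49.7% at p23 over 13 CpGs (limma adjusted p = 0.0134), beside 31.7% in serum p20. Fkbp6, also a component of meiotic chromosome cores, had 11.4%, 8.6% and 6.5%, then 39.4%, 34.2% and 30.8%, over only 3 CpGs. Mael, a piRNA pathway protein, had 12.1%, 12.7% and 7.1%, then 31.1%, 44.4% and 21.7% (limma adjusted p = 0.0312), beside 14.2%. Sohlh2, a transcription factor of early germ cell differentiation, had 7.6%, 6.3% and 6.1%, then 25.9%, 23.6% and 31.6%, beside 5.44%. Serum p10 had a mean of 53.0% at Sycp1, above its p23 mean of 42.5%. At Mael and Sohlh2 serum p10 had 22.9% and 15.9%, below their p23 means of 32.4% and 27.0%. The call depended on single libraries: without 1 of them, it was lost in 4 of 6 cases for Sycp1, 2 of 6 for Fkbp6, 5 of 6 for Mael and 1 of 6 for Sohlh2, with the highest adjusted p at 0.112, 0.0549, 0.203 and 0.0383. The gain was 18.1 points for Sohlh2 without the p23 library of J-37 and 15.8 points for Mael without that of J-35. For Sycp1 the 4 libraries were those of J-35 and J-37 in both groups, for Fkbp6 they were 2i/L p20 J-37 and p23 J-34, and for Mael all but p23 J-37. The windows of Hormad1, Dmrtb1 and Hormad2, meiotic or testis genes, gained 9.83, 9.59 and 8.51 points, under the 20 points of the call. Btbd18, whose window also matches the promoter of Ctnnd1, gained 16.7 points. Ddx4 gained 7.47 points, and the windows of Smc1b, Meioc, Dmc1 and Tdrkh changed by 1.33, 0.0866, -0.00775 and -1.18 points.

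Genes that act on pluripotency or on methylation itself had promoters with little methylation in either medium, with 1 exception. The 8 tested windows of pluripotency genes, which include Pou5f1, Sox2, Klf2, Klf4 and Tfcp2l1, reached at most 2.26% at p23, and 0 were called, close to the 2.71% of all windows. Of 13 windows of genes of the methylation machinery (Dnmt1, Dnmt3a, Dnmt3b, Uhrf1, Tet1, Tet2, Tet3, Tdg, Setdb1 and Atf7ip), 12 were under 10% in serum p10 and reached at most 1.04% at p23. The exception was 1 start of Atf7ip, the partner of the histone methyltransferase Setdb1. It had 8.6%, 4.8% and 1.6% in 2i/L p20, then 35.6%, 53.0% and 46.1% at p23 over 14 CpGs (limma adjusted p = 5.12e-05), beside 27.2% in serum p20 and 21.3% at p30.

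Among promoter windows methylated in serum, the lowest recoveries were at imprinted genes. Of 32 imprinted genes listed, 11 (13 windows) were tested and 0 windows were called, a count close to the 2.71% of all windows, and 8 of the 13 were under 10% in serum p10. Windows at 20% or more in serum p10 that lay at least 10 points higher in serum p20 than in 2i/L p20 numbered 211, with a median recovery of 106% and 188 called. Recovery was under 25% in 4 of them, which were the windows of Plagl1, Hymai, Zrsr1 and Commd1. Plagl1, a growth regulator expressed from the paternal allele, had 12.6%, 7.4% and 0.0% in 2i/L p20, 7.0%, 7.8% and 0.6% at p23, and 50.3%, 32.2% and 52.7% in serum p20 over 11 CpGs. Hymai, a transcript from the same start region, had 12.0%, 6.4% and 0.0%, then 6.3%, 8.4% and 1.3%, and its window shares CpGs with that of Plagl1, so the 2 are 1 region. Zrsr1, an imprinted splicing factor gene inside Commd1, had 10.5%, 7.8% and 1.0%, then 16.0%, 4.9% and 1.7%, beside 31.9%, 29.9% and 43.4% in serum p20. The start of Commd1 nearest to it had 13.6%, 11.7% and 0.0%, then 14.7%, 3.8% and 4.8%, beside 42.6%, 31.0% and 40.2%. The windows of Zrsr1 (chr11:22871863-22872011 in mm9) and Commd1 (chr11:22872819-22872993) lie close together, so the 4 windows come from 2 regions. In all 4 windows the p23 and 2i/L p20 libraries overlapped and the 3 serum p20 libraries lay above all 6.

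The limma adjusted p for these 4 windows ran from 0.906 to 0.982, and 0 were under 0.05 before adjustment. The gains within single lines ran from -7.96 to 5.50 points. Mcts2, an imprinted gene at 19.9% in serum p10, had 0.0% in all 3 libraries of 2i/L p20 and 2.2%, 6.4% and 0.7% at p23, a gain of 3.09 points (limma adjusted p = 0.0251), under the 20 points of the call. At p30 the means of the windows of Plagl1, Hymai, Zrsr1 and Commd1 were 5.58% to 11.4%. The next lowest recoveries were at Sh3tc1 (36.8%, 4 CpGs), Pgk1 (39.9%), a glycolytic gene on chromosome X, and the predicted gene Gm40327 (46.8%, 4 CpGs). Pgk1 had 14.7%, 5.7% and 5.8% in 2i/L p20, 23.5%, 23.7% and 20.3% at p23, and 41.0%, 44.2% and 44.6% in serum p20 over 11 CpGs, and its window did not pass the test (limma adjusted p = 0.0615).

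**Figure D5:**
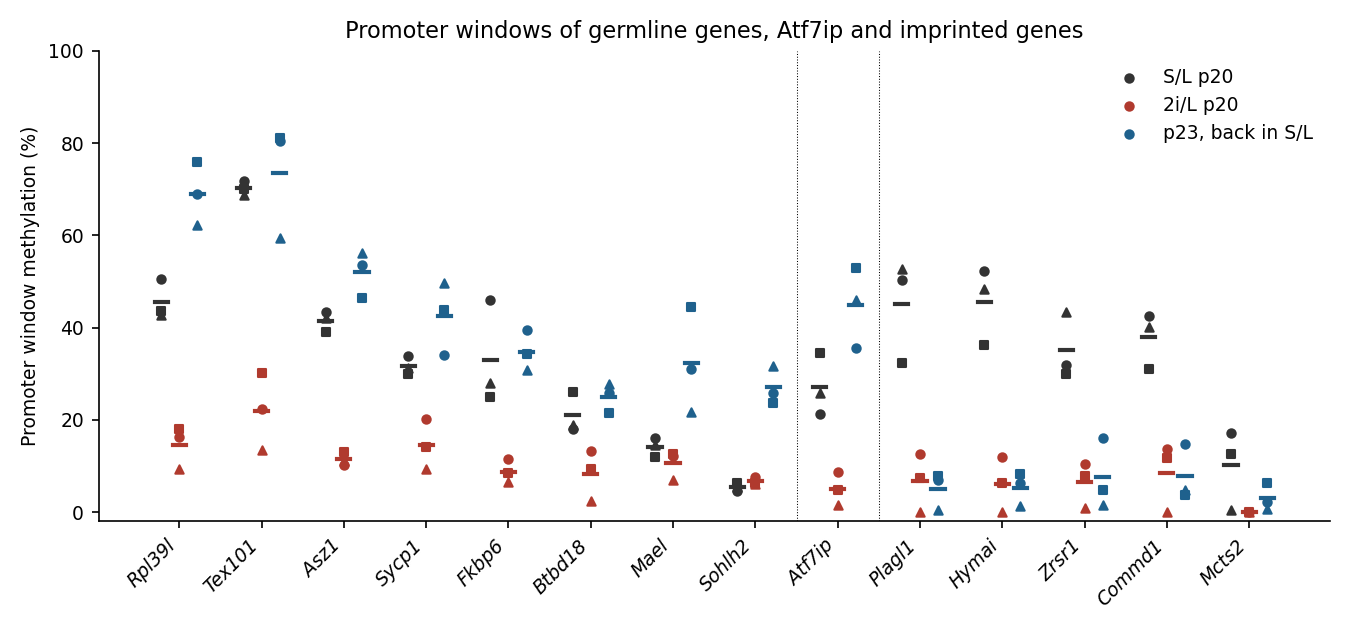
Methylation of promoter windows (percent, linear axis) in serum p20, 2i/L p20 and at p23, for 8 germline genes, Atf7ip and 5 imprinted genes. Markers are lines (circle J-34, square J-35, triangle J-37) and bars their means. At the 8 germline genes and Atf7ip each p23 marker lies above every 2i/L p20 marker, and at Plagl1, Hymai, Zrsr1 and Commd1 the 2 groups overlap below every serum p20 marker. The 8 germline genes shown have the largest gains of the 16 tested, a choice that favours their separation.

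The printed sequences were searched on both strands for 3 short words. TGCCGC, the core of the Zfp57 motif known from imprinted regions, occurred once before the starts of Plagl1 and Asz1 and not in the other 4, against 18.6% of 9591 distinct sequences of the same length. CACGTG, an E-box, occurred once before Plagl1 and Sycp1, against 8.91% of all. TCCCGC, the core of an E2F motif, occurred in none of the 6, against 37.5% of all. A match is a description of these letters and not a binding site.

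In all, 2 tiles were lower at p23 by 10 points or more at an adjusted p under 0.05, below the 20-point rule. At chr2:174122853-174122932 (6 CpGs, at least 34 reads) the levels were 24.6%, 25.0% and 5.9% in 2i/L p20, then 3.0%, 3.2% and 5.7% at p23 (limma adjusted p = 0.00380), beside 27.5% in serum p20 and 15.2% at p30. Without the 2i/L p20 library of J-37 the difference was -20.8 points, and this became the 1 tile called lower. At chr7:31757438-31757887 (7 CpGs) the levels were 9.2%, 17.1% and 20.5%, then 1.0%, 7.5% and 4.7%, beside 4.10% in serum p20 and 13.7% in 2i/L p10. Neither tile was part of the naming rule, and both were chosen after their values were seen.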

How the data were processed

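RRBS libraries were aligned with BSMAP 2.89 to mm9, per the submitters' processing notes. Each deposited file gives, per CpG, a text field of methylated over total reads and a score, which is that share times 1000 rounded down, as the values show; no source used here states which filters the authors applied. Counts were taken from the text field, and the score was used only to check it. Tiles were tested with limma 3.58.1 (R 4.3.3) on log2((methylated + 1)/(unmethylated + 1)), Benjamini-Hochberg adjusted over all 82011 tiles, and called at an adjusted p under 0.05 and 20 points. Promoters were tested likewise over 9607 windows. The same lines appear in both groups, which pairs the samples; the deviations of same-line libraries correlated at 0.117, 0.00943 and 0.146. The fit without this block was the main one.

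The members, gene lists and printed sequences were chosen with earlier results of these data known. Named tiles are those with the largest or smallest gains by class, the largest line differences and the lowest recovery. Promoter placement was designed after the data were examined: a sequence needed 8 or more CpGs (4 beside placed neighbours within 20 bases of shift), 90% of listed CpGs matching and a second best of at most 75%, within 8 Mb, and these limits were loosened during the work. The test was tried on simulated data, and the number of changed tiles it had to find was lowered after the outcome was seen. That outcome is not used as support here. Counts cover sampling error at best. RRBS reads carry no molecular identifiers here, so reads copied from the same molecule were not told apart. Alternatives were read depth, bin size, CpG number, pseudocount, model, minimum difference, line block and each library left out.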

Additional observations from a re-analysis of the deposited data

How the results depend on the processing

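With 10 or more reads per CpG 17029 of 40495 tiles (42.1%) were called higher, and with 5 or more CpGs per bin 14966 of 39612 (37.8%), against 61.7%; the cause of the lower shares was not tested. Tiles called lower numbered 2 at a 10-point minimum and 232 with no minimum, and 0 to 1 when single libraries were left out. With tiles classed by 2i/L p10, the gain was 4.04 points under 5% residual level and 27.8 points at 5 to 10%. Leaving out single libraries gave 4.33 to 7.64 points under 5%, 25.9 to 36.5 at 5 to 10% and 38.1 to 48.8 at 10 to 20%. Each such run dropped the line of that library. Without a 2i/L p20 library, each remaining line was also classed by 1 other line alone, so the classes held different tiles. The highest values came without the 2i/L p20 library of J-34, the lowest in the last 2 classes without that of J-37. The part of this change of classes in the range was not tested. Recovery was 89.2% when chosen by S/L p20 and compared with S/L p10. Among alternatives chosen after seeing the data, promoter windows called higher numbered 17 when placed by spacing alone and 94 with 5 or more CpGs, and 224 to 257 without single libraries.

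With cell line as a replicate block, 50669 tiles were called higher, of which 50634 were shared with the fit without the block, and the same 260 promoter windows were called, with 0 lower in either. The global gain was 16.9 to 20.4 points without single libraries. Of 19 named promoters under 8 alternatives each and 32 named tiles under 9, 39 stayed on the same side of the call, and 7 lost it and 5 gained it under some alternative. The gain changed sign in 8, of which 0 were called with all libraries. The tile at chr13:13233564-13233581 lost its call with a pseudocount of 0.5 and with the quasi-binomial model.

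With 3 lines of 1 library each, the exact permutation test cannot go below 0.1, or 0.25 within lines. The p30 level rests on 2 libraries. Tiles of 3 to 5 CpGs near 30 reads are imprecise.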
